A study of Mus musculus with 64 samples.

Results

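Atf4 and the genes tied to its amino acid response were followed in cultured mouse natural killer (NK) cells, lymphocytes that lyse virus-infected and tumour cells and release cytokines. The 39 genes were listed by name, with earlier results of these data known, and not by a cut-off on a value: 5 transcription factors, 4 stress effectors, 7 enzymes of amino acid and one-carbon synthesis, 4 amino acid transporters and 19 cytosolic aminoacyl-tRNA synthetase genes. Of the 36273 gene rows in the raw count table, 38 carried a listed symbol, and every synthetase was found under its own symbol. Ddit3 (CHOP) has no row and was not analysed here. Pycr1, a proline-forming enzyme, had a mean of 1.25 counts and at most 5 counts in a library and was left out of the tests, so 37 of the 39 genes were tested.

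The study asked how prostaglandin E2 (PGE2), alone or in tumour cell medium, changes resting and activated NK cells, and through which of its receptors. Spleen NK cells came from C57BL/6J mice (WT), from Ptger2-/-Ptger4fl/fl mice (EP2KO) and from GzmbCrePtger2-/-Ptger4fl/fl mice (DKO). EP2KO cells therefore lack the receptor EP2 and carry an intact but floxed gene for EP4, and in DKO cells Cre driven by Gzmb, a gene of cytotoxic cells, acts on that floxed gene. All cells grew for 5 days in low-dose IL-2 and IL15:IL15Ra, and then received nothing, PGE2 at 100 ng/ml, or conditioned medium (CM) of PGE2-producing control BRAFV600E tumour cells. Unstimulated cells stayed in treatment for 5 h, whereas stimulated cells had 1 h of treatment followed by 4 h of anti-NK1.1, an antibody that engages the activating receptor NK1.1. The 18 groups held 4 libraries each in WT and EP2KO and 3 each in DKO, except for WT with PGE2 and no stimulation, which held 2.

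ATF4 is a bZIP transcription factor whose mRNA is translated more when the initiation factor eIF2 is phosphorylated, as happens when a cell runs short of amino acids or its protein folding is disturbed. With C/EBP partners it binds composite elements in the promoters of genes for amino acid uptake, amino acid synthesis, one-carbon metabolism and tRNA charging. Activated lymphocytes draw on the same genes when they grow, and mTORC1 signalling also raises ATF4 output. The receptors EP2 and EP4 couple to Gs and raise cyclic AMP.

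The composite element has the core TGATGNAA, and 6 promoters that hold it are shown, chosen because their genes rose with anti-NK1.1 and fell with both treatments in stimulated WT cells, as described further on. The stretches are RefSeq reference sequence (build GRCm38.p6), printed 5′ to 3′ on the strand of the gene, with capitals marking the core on either strand.
Asns, chr6:7693214-7693243 (reverse strand): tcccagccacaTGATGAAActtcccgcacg
Gars, chr6:55037941-55038000 (forward strand): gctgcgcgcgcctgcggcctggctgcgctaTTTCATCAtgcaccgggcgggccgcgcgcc
Tars, chr15:11399659-11399718 (reverse strand): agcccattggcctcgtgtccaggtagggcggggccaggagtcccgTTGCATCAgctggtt
Chac1, chr2:119351022-119351081 (forward strand): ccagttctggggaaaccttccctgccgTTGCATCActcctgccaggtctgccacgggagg
Iars, chr13:49682126-49682155 (forward strand): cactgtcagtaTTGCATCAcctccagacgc
Yars, chr4:129189895-129189924 (forward strand): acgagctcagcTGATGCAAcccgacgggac
The core starts 23 bases before the start site in Asns, 30 before it in Gars, 15 before it in Tars and 193 before it in Chac1. In Iars and Yars it lies after the start site, from position 8 and position 4. Across the 300-base promoter windows, which run from 250 bases before to 50 bases after a start, 31 of the 39 genes had an entry. The core was found in 10 of the 31, among them Trib3, Pycr1 and Slc7a11, and in 3.97% of all 32851 windows. The cyclic AMP response element TGACGTCA was in 0 of the 31 and in 1.79% of all windows, and the E-box CACGTG was in 5 of the 31 and in 7.15% of all windows. These are matches of letters on both strands, and Atf4's own window held none of the 3 motifs. The 31 were counted by gene, with more than 1 window for Atf5, Psat1 and Slc7a1, and the shares by window. Because the genes were listed for their tie to ATF4, the count for its core is no test of enrichment.

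Library totals ran from 753973 to 1693750 counts (median 1256163), so 1 count is close to 1 CPM (count on a normalised library total scaled to 1e+06). NK cell markers took 0.299 to 0.927% of counts in each library, and all 8 were detected. With anti-NK1.1, 4 rose and 3 fell in each genotype (42.0, 33.3 and 30.2% of all genes changed in WT, EP2KO and DKO). In stimulated WT 5 fell with PGE2 and with CM (Gzmb, Ncr1, Nkg7, Prf1 and Tbx21), where 15.6 and 15.4% changed. In stimulated EP2KO 3 fell with each (3.90% of all genes fell with PGE2, 10.4% changed with CM), and in DKO 0. At rest 2 fell with PGE2 and 5 with CM in WT, 2 and 3 in EP2KO, and 0 in DKO. Their part in the results was not tested. T cell markers summed to at most 0.00871%, with means of 32.2 CPM for Trac, 7.24 for Cd3g, 2.43 for Cd3e, 1.2 for Cd8a and 0.258 for Cd4. Markers of macrophages and dendritic cells reached 0.0194%, with means of 31.9 CPM for Lyz2, 14.1 for Cd68 and 2.33 for Csf1r and the other 2 of 5 under 1 CPM. B cell markers summed to at most 3.36e-04%, all 4 under 1 CPM. Neutrophil markers reached 0.0658% in 1 EP2KO library, and each EP2KO group had a library at 0.0479% or more. The highest library held 0.0297% in WT and 0.0159% in DKO. Mean levels were 82.8 CPM for Mpo, 64.9 for S100a8, 26.7 for S100a9 and 0.16 for Ly6g. None of the 3 tested markers passed in any treatment or stimulation comparison within a genotype. Their part in differences between genotypes was not tested. Ptger2 was counted in all 24 EP2KO and all 18 DKO libraries (medians 6.49 and 5.92 CPM, against 7.15 in WT), and Ptger4 in all 18 DKO libraries (median 54.95 CPM, against 25.1 in WT). The counts come from transcript 3′ ends and the deleted parts are not given in the labels, so these counts do not check the knockouts, and the genotypes rest on the labels. The labels do not say whether replicates came from separate animals, and p-values then reflect only the library-to-library spread, which may be technical. In bulk RNA, a change in the number of cells of a type and a change in RNA per cell cannot be told apart.

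Anti-NK1.1 raised nearly the whole set in untreated cells. In WT, 30 of the 37 tested genes rose and 1 fell by edgeR's quasi-likelihood test at an adjusted p under 0.05, where 42.0% of all 10723 tested genes changed in either direction (2465 rose and 2043 fell). In EP2KO 32 rose and 1 fell (33.3% of all genes changed), and in DKO 30 rose and 1 fell (30.2% of all genes changed). The median log2 change of the 37 genes was 1.11, 1.12 and 1.06 in the 3 genotypes, against 0.01 over all genes tested in each. Together the genes took 0.247% ± 0.00485 (SD, n = 4) of WT counts without stimulation and 0.498% ± 0.0103 (SD, n = 4) with it. Values by library are printed below mainly for genes with the most calls in these same comparisons. Their separation between groups therefore follows in part from that choice, and its share over all genes was not counted.

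Among the transcription factors, Atf4 (chr15:80255184-80257541, GRCm38) stood at 109, 111, 112 and 93.04 CPM in the 4 resting untreated WT libraries and at 289, 248, 348 and 339.5 CPM after anti-NK1.1. Every stimulated library lay above every resting one, and the log2 change was 1.52 ± 0.11 (SE, edgeR adjusted p = 8.22e-18). It rose by 1.43 ± 0.11 in EP2KO and 1.47 ± 0.13 in DKO. Cebpg, a partner of ATF4 on the composite element, rose by 0.44, 0.64 and 0.48 in WT, EP2KO and DKO. Atf5, a relative of ATF4, rose by 1.05 in WT and 1.51 in EP2KO and stood at 0.81 in DKO without passing the test. Cebpb, another C/EBP factor, passed it in EP2KO (0.72) and DKO (0.84) and not in WT (0.63).

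Ddit4 (REDD1), an inhibitor of mTORC1, was the exception among the stress effectors: it fell. Its levels were 47.2, 24.7, 28.6 and 37.4 CPM in resting WT libraries and 16.8, 12.2, 14.6 and 18.7 CPM in stimulated ones, with no overlap, and it fell by 1.15 ± 0.25 (SE) in WT, 0.97 ± 0.25 in EP2KO and 0.86 ± 0.27 in DKO. The pseudokinase Trib3 rose in all 3 genotypes (1.27, 1.73 and 1.30). Sesn2, a sestrin that restrains mTORC1, rose in WT (0.95) and EP2KO (1.03) and did not pass in DKO (0.70). Chac1, which degrades glutathione, rose by 2.14 ± 0.69 in WT and 3.23 ± 0.91 in DKO. It had 0 counts in all 4 resting EP2KO libraries and 28 counts over the 4 stimulated ones, at least 8.62-fold higher against a floor of 3 counts over the group. In stimulated untreated WT its counts were 4, 4, 11 and 19, and without the last of these libraries (replicate 4) the rise in WT did not pass (1.58, adjusted p = 0.0543).

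Of the 6 tested enzymes of synthesis, 4 rose in WT and 5 each in EP2KO and DKO. In either direction, 42.0, 33.3 and 30.2% of all genes changed in the 3 genotypes. Mthfd2, the mitochondrial one-carbon dehydrogenase, went from 54.5, 59.8, 46.7 and 49.01 CPM at rest to 176, 140.2, 161 and 204 CPM in stimulated WT libraries, a rise of 1.69 ± 0.15 (SE). The rise was 1.70 ± 0.15 in EP2KO and 1.83 ± 0.17 in DKO. Its partner Shmt2, the mitochondrial serine hydroxymethyltransferase, read 46.5, 34.3, 34.3 and 40.7 CPM and then 70.1, 49.6, 79.6 and 78.7 CPM in WT (0.82 ± 0.17). Asparagine synthetase (Asns) read 26.9, 15.9, 16.2 and 14.1 CPM at rest and 28.2, 32.4, 39.3 and 62.3 CPM stimulated in WT (1.13 ± 0.25). None of these 3 overlapped between resting and stimulated WT libraries, although the highest resting and lowest stimulated Asns libraries lay close together. Aldh18a1, which starts proline synthesis from glutamate, rose by 0.97, 0.82 and 0.89 in WT, EP2KO and DKO. The serine synthesis enzymes were uneven: Phgdh passed the test in EP2KO alone (1.04, against 0.19 in WT and 0.00 in DKO), and Psat1 in DKO alone (0.73, against 0.41 and 0.52).

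Of the 4 transporters, 3 rose in each genotype, where 42.0, 33.3 and 30.2% of all genes changed in either direction. Slc7a5 (LAT1), which brings in leucine and other large neutral amino acids, read 21.1, 27.1, 14.3 and 22.4 CPM in resting WT libraries and 99.8, 57.5, 96.04 and 107 CPM in stimulated ones, with no overlap (2.06 ± 0.23). The arginine and lysine transporter Slc7a1 (CAT1) rose by 2.22 ± 0.20 in WT, 1.82 ± 0.19 in EP2KO and 2.16 ± 0.23 in DKO. Slc3a2 (4F2hc), the heavy chain that LAT1 needs at the membrane, rose by 0.74, 1.12 and 0.90. Slc7a11, the cystine transporter, did not pass in any genotype and held between 0 and 23 counts in a library.

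Synthetases, which load each tRNA with its amino acid, rose for 17 of 19 in each genotype (42.0, 33.3 and 30.2% of all genes changed). In WT the glycine enzyme Gars went from 82.8, 70.98, 80.98 and 74.8 to 199, 179, 179 and 219 CPM, and the asparagine enzyme Nars from 254, 292, 294 and 287 to 801, 759, 976 and 855 CPM. The threonine enzyme Tars went from 116, 114, 100.0 and 100.5 to 305, 280.5, 333 and 318 CPM. All 3 were higher in every stimulated library, with log2 changes of 1.33 ± 0.12, 1.59 ± 0.12 and 1.52 ± 0.12. The same separation held in WT for Rars (1.38 ± 0.14), Eprs (1.43 ± 0.12), Lars (1.14 ± 0.14), Cars (1.69 ± 0.18) and Iars, whose 1.99 ± 0.18 was the highest estimate of the 19. The 2 synthetases that did not pass in any genotype were Qars (-0.12, -0.27 and -0.20) and Vars (-0.15, -0.08 and -0.20), which charge glutamine and valine tRNAs. Farsa and Farsb, the subunits of the phenylalanine enzyme, rose by 0.77 and 0.49 in WT.

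No gene of the set passed the test for a difference between genotypes in its anti-NK1.1 effect: 0 passed for EP2KO minus WT (3 at an unadjusted p under 0.05, 0 by DESeq2, 0% of all genes) and 0 for DKO minus WT (2 at an unadjusted p under 0.05, 0 by DESeq2, 0.00933% of all genes). For Atf4 the differences were -0.10 (95% interval -0.41 to 0.22) and -0.05 (-0.39 to 0.29). T cell markers moved with stimulation in WT, from 0.00266 to 0.00399% of counts at rest to 0.00478 to 0.00757%, through 1 of 3 tested markers (Trac, which rose in all 3 genotypes), and their part in the result was not tested. Of the 3 tested macrophage and dendritic cell markers, Cd68 fell in WT (-0.83, edgeR adjusted p = 0.04), where the summed share went from 0.00205 to 0.00651% to 0.00149 to 0.00329%, and its part was not tested either.

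The calls were then followed through the alternative fits, which were other scalings, no filter on low counts, DESeq2, the compared genotypes alone, a replicate block and each library left out in turn. In WT 27 of 31 calls with anti-NK1.1 held in all of them (Atf5, Cebpg, Chac1 and Farsb did not), in EP2KO 32 of 33 (not Cebpb) and in DKO 26 of 31 (not Cebpb, Cebpg, Ddit4, Psat1 and Trib3).

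**Figure D1:**
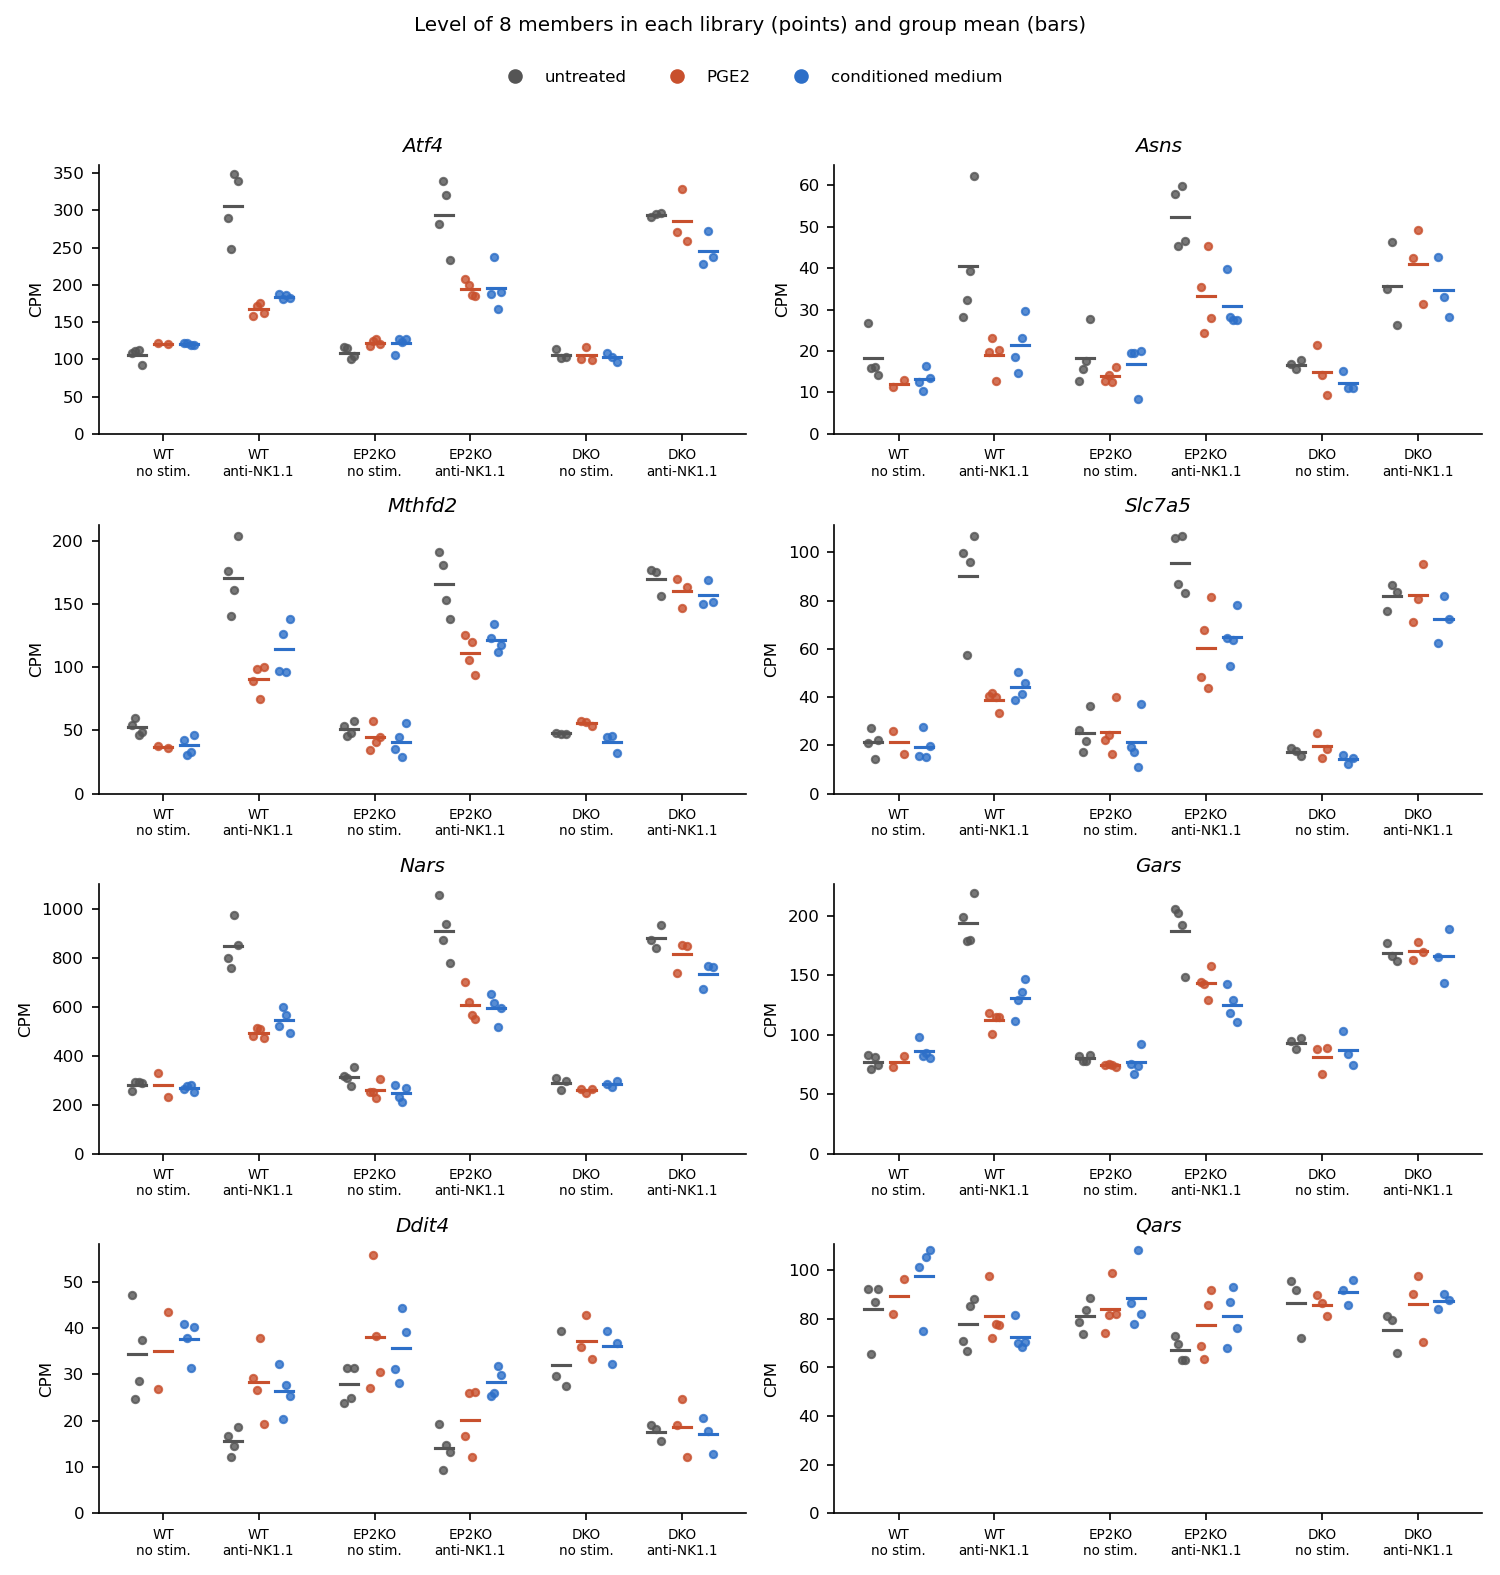
Level of 8 genes in each library (points, CPM, vertical axes) across the 18 groups (horizontal axes), with bars at the group mean. Colours mark the treatment (untreated, PGE2 or CM), and the genotypes stand side by side along the horizontal axis. Atf4, Asns, Mthfd2, Slc7a5, Nars and Gars rise with anti-NK1.1 in all 3 genotypes and sit lower with PGE2 or CM in stimulated WT libraries, Ddit4 moves the other way, and Qars did not pass in any comparison within a genotype.

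Stimulated WT cells given PGE2 1 h before anti-NK1.1 had lower levels of these genes. Of the 37 genes, 20 were lower and 1 was higher than in stimulated untreated WT cells, where 15.6% of all tested genes changed in either direction (1033 fell and 643 rose). The median log2 change was -0.60, against -0.05 over all genes. The set's share of counts was 0.372% ± 0.00953 (SD, n = 4), below every stimulated untreated library and above every resting one. The fall took in Atf4, 3 of 6 synthesis enzymes, 1 of 4 transporters, 1 of 4 stress effectors and 14 of 19 synthetases.

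Atf4 read 159, 172, 175 and 163 CPM in the 4 stimulated WT libraries with PGE2. All lay below the stimulated untreated libraries and above the resting ones, and Atf4 fell by 0.87 ± 0.11 (SE, edgeR adjusted p = 5.38e-09). Cebpb (-0.01), Cebpg (-0.27) and Atf5 (-1.01) did not pass, and Atf5 held at most 20 counts in a library. Ddit4, lowered by stimulation, rose with PGE2: its libraries read 29.1, 26.6, 37.97 and 19.3 CPM, all above the stimulated untreated ones (0.85 ± 0.25, adjusted p = 0.0119). Chac1 fell by 2.43 ± 0.77, a call that was lost without replicate 4 of the stimulated untreated group (-1.87, adjusted p = 0.0771), and Trib3 (-0.70) and Sesn2 (-0.67) did not pass.

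Slc7a5 fell to 40.3, 41.5, 39.9 and 33.4 CPM, below every stimulated untreated library (-1.21 ± 0.21, adjusted p = 1.18e-05). The heavy chain Slc3a2 did not pass (0.03, 95% interval -0.32 to 0.37), and Slc7a1 stood at -0.48 with an adjusted p of 0.061. Mthfd2 fell to 89.1, 98.9, 74.97 and 100.2 CPM (-0.90 ± 0.14) and Asns to 19.7, 23.3, 12.7 and 20.2 CPM (-1.08 ± 0.25), neither overlapping the stimulated untreated libraries. For Asns the range with PGE2 ran into that of resting cells. Shmt2, at 30.9, 51.5, 45.8 and 41.3 CPM, fell by 0.71 ± 0.17 with 1 library of each group in the range of the other. The serine enzymes Phgdh (-0.60) and Psat1 (-0.47) and the proline enzyme Aldh18a1 (-0.54) did not pass.

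Among the synthetases, Nars fell to 480.0, 513, 511 and 475 CPM (-0.78 ± 0.11) and Gars to 118, 100.5, 115 and 115 CPM (-0.79 ± 0.12). Tars fell to 194, 164, 181 and 199 CPM (-0.74 ± 0.12) and Iars to 84.9, 64.8, 71.1 and 65.1 CPM (-0.95 ± 0.16). In these 4 genes, picked by their number of calls, every library with PGE2 lay between the resting and the stimulated untreated ranges. The same order held for Eprs, which charges glutamate and proline tRNAs (379.7, 436, 388 and 362 CPM, -0.62 ± 0.12), and for the arginine enzyme Rars (189, 181, 178 and 166 CPM, -0.45 ± 0.13). It also held for the leucine enzyme Lars (114, 129.6, 137 and 143 CPM, -0.40 ± 0.14), whose call was lost in 4 of 6 alternative fits and in 5 of the 8 fits that left out a library, and the cysteine enzyme Cars (40.3, 49.9, 44.8 and 43.96 CPM, -0.83 ± 0.17). Yars (-0.77), Aars (-0.69), Wars (-0.67), Sars (-0.54), Hars (-0.45) and Kars (-0.42) also fell. Dars (-0.15), Farsa (-0.34), Farsb (-0.44), Qars (0.07) and Vars (-0.27) did not pass. The T cell marker share in these libraries was 0.00315 to 0.00482% and 2 of 3 tested T cell markers (Cd3g and Trac) fell, and their part in the result was not tested.

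Split by whether the enzyme belongs to the multisynthetase complex, 5 of 7 complex members and 9 of 12 others fell with PGE2, and 6 of 7 and 11 of 12 had risen with anti-NK1.1. Over all tested genes 15.6% changed with PGE2 and 42.0% with anti-NK1.1. This split was made after the values were seen and was not tested. Of the 21 calls with PGE2 in stimulated WT, 15 held in every alternative fit, and Chac1, Ddit4, Hars, Kars, Lars and Rars did not. Ddit4 passed in all but the fit without replicate 3 of the PGE2 group.

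In stimulated WT cells with CM, measured against the same untreated libraries as PGE2, 17 of the 37 genes fell and 1 rose (15.4% of all genes changed in either direction), with a median of -0.44. Atf4 read 188, 180.4, 186 and 182 CPM and Slc7a5 38.7, 50.4, 41.3 and 45.96 CPM, both below every stimulated untreated library and above every resting one, and they fell by 0.73 ± 0.11 and 1.03 ± 0.21 (SE). Slc7a1 passed here (-0.57), as did Chac1 (-2.36), Asns (-0.92), Shmt2 (-0.65), Mthfd2 (-0.58) and, upward, Ddit4 (0.76). Without replicate 4 of the stimulated untreated group the calls of Chac1 (-1.80, adjusted p = 0.0787) and Asns (-0.63, adjusted p = 0.0875) were lost. Of the synthetases 10 of 19 fell, led by Rars (138, 136, 159 and 141 CPM, -0.77 ± 0.13), Iars (-0.71), Nars (-0.64) and Eprs (-0.64). Cars (-0.44), Aars (-0.36), Sars (-0.22) and Hars (-0.34) did not pass with CM. Of the 18 calls 10 held in every alternative fit, and Asns, Chac1, Ddit4, Kars, Lars, Slc7a1, Wars and Yars did not. The T cell marker share was 0.00435 to 0.00514% and 1 of 3 tested markers (Trac) fell, and its part was not tested.

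Set against each other over the 3 genotypes, CM and PGE2 differed in 0 of the 37 genes in stimulated cells (4 at an unadjusted p under 0.05, 0 by DESeq2, 0.438% of all genes) and in 0 at rest (1 at an unadjusted p under 0.05, 0 by DESeq2, 0.0560% of all genes). This contrast is a mean that includes DKO cells, and CM against PGE2 was not tested in WT alone. In stimulated cells the difference CM minus PGE2 was -0.02 for Atf4 (95% interval -0.16 to 0.11), 0.03 for Slc7a5 (-0.22 to 0.29) and 0.14 for Mthfd2 (-0.03 to 0.31). The 4 genes under the unadjusted level were Cars (0.25), Sars (0.16), Dars (-0.20) and Lars (-0.18).

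In EP2KO cells, which carry the EP4 gene, the set still fell in stimulated cells. PGE2 lowered 15 of the 37 genes and raised 0 (3.90% of all genes fell), with a median of -0.44, and CM lowered 16 and raised 1 (10.4% of all genes changed), with a median of -0.45. Atf4 read 282, 339.9, 320.5 and 233 CPM in stimulated untreated EP2KO libraries, 208, 199.9, 187 and 185 CPM with PGE2 and 188, 237, 167 and 190.3 CPM with CM. The PGE2 libraries lay below all untreated ones, while 1 CM library lay within the untreated range, and Atf4 fell by 0.59 ± 0.11 and 0.58 ± 0.11 (SE).

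Slc7a5 read 106, 86.96, 107 and 83.2 CPM untreated and 48.4, 67.9, 43.7 and 81.3 CPM with PGE2, without overlap but with a wide spread (-0.67 ± 0.20), and its change with CM had an adjusted p of 0.0532 (-0.56 ± 0.20). Mthfd2 fell with PGE2 (-0.58) and CM (-0.45). Phgdh, the first enzyme of serine synthesis, passed with PGE2 (-0.79), and Asns (-0.75), Shmt2 (-0.57) and Trib3 (-1.06) passed with CM. The Trib3 call was lost in 4 of 6 alternative fits, DESeq2 among them (-1.07, adjusted p = 0.0753), and in 7 of the 8 fits that left out a library, and the Asns call in 5 of those 8. Ddit4 rose with CM by 0.99 ± 0.25, and stood at 0.50 with PGE2 without passing.

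Of the 19 synthetases 11 fell with each treatment in EP2KO (3.90% of all genes fell with PGE2, 10.4% changed with CM). Nars read 1059, 873, 937 and 779 CPM untreated, 701, 619, 567 and 549 CPM with PGE2 and 652, 614, 516 and 595 CPM with CM, and both treated groups lay below the untreated one (-0.58 ± 0.11 and -0.62 ± 0.11). Eprs (-0.50 and -0.59) and Cars (-0.69 and -0.60) separated in the same way. Gars (-0.39), Tars (-0.44), Iars (-0.60), Rars (-0.48) and Lars (-0.47) fell with PGE2 although their ranges overlapped. Without replicate 3 of the stimulated untreated EP2KO group, the count for PGE2 was 7 in place of 15, and that for CM 10 in place of 17 in either direction. Scaling by library totals in place of TMM factors gave 5 for PGE2, and leaving out the filter on low counts gave 9 for PGE2 and 10 for CM. In EP2KO 5 of 15 calls with PGE2 held in every alternative fit (Aars, Eprs, Gars, Hars, Iars, Lars, Phgdh, Rars, Slc7a5 and Tars did not) and 8 of 17 with CM (Asns, Cars, Dars, Farsa, Hars, Mthfd2, Sars, Shmt2 and Trib3 did not).

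The difference EP2KO minus WT in the treatment effect passed for 0 of the 37 genes with PGE2 (3 at an unadjusted p under 0.05, 0 by DESeq2, 0% of all genes) and for 0 with CM (0 at an unadjusted p under 0.05, 0 by DESeq2, 0% of all genes). The estimate was positive for 30 of the 37 genes with PGE2, with a median of 0.19 against 0.04 over all genes. With CM it was positive for 24 of the 37, with a median of 0.05 against 0.02. For Atf4 the difference was 0.28 (95% interval -0.03 to 0.59) with PGE2 and 0.15 (-0.16 to 0.46) with CM. For Slc7a5 it was 0.54 (-0.04 to 1.11) and 0.47 (-0.10 to 1.04). These intervals leave room for a weaker response in EP2KO as well as for none.

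At the level of single libraries, Gars in EP2KO read 206, 203, 192 and 148 CPM untreated, 144, 143, 129 and 158 CPM with PGE2 and 143, 118, 129 and 110.4 CPM with CM. Mthfd2 read 191, 180.4, 153 and 138 CPM untreated, 125, 105, 119.7 and 93.9 CPM with PGE2 and 123, 134, 112 and 118 CPM with CM. Replicate 4 of the untreated group was the lowest of its 4 libraries for both genes, and for Gars it lay within the PGE2 range, while every treated Mthfd2 library lay below it. Ddit4 read 19.3, 9.34, 14.7 and 13.2 CPM untreated, 16.6, 25.9, 12.1 and 26.1 CPM with PGE2 and 25.3, 26.04, 31.9 and 29.9 CPM with CM, so that the CM libraries alone lay above all untreated ones.

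In DKO cells neither treatment moved a gene of the set past the test. PGE2 changed 0 of 37 in stimulated cells (0 at an unadjusted p under 0.05, 0 by DESeq2, 0% of all genes), and CM changed 0 (5 at an unadjusted p under 0.05, 0 by DESeq2, 0.0746% of all genes). The medians were 0.01 with PGE2 and -0.11 with CM. Atf4 read 291, 296 and 296 CPM in stimulated untreated DKO libraries, 272, 328 and 259 CPM with PGE2 and 228, 272 and 238 CPM with CM. The PGE2 range spanned the untreated one (-0.04 ± 0.12), and all 3 CM libraries lay below it (-0.26 ± 0.12, adjusted p = 0.71). Slc7a5 read 75.9, 86.2 and 83.6 CPM untreated and 71.1, 80.6 and 95.2 CPM with PGE2 (0.01 ± 0.22), and Nars 872, 842 and 934 and 741, 854 and 850.5 CPM (-0.11 ± 0.13). For Slc7a5 and Nars the ranges with and without PGE2 overlapped. Mthfd2 read 177, 176 and 156 CPM untreated and 170.0, 147 and 163 CPM with PGE2 (-0.08 ± 0.16), and Ddit4 18.97, 18.1 and 15.6 and 19.1, 24.6 and 12.1 CPM (0.08 ± 0.29), again with overlap.

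The test of the difference itself, DKO minus WT in the PGE2 effect on stimulated cells, passed for 9 of the 37 genes, all higher in DKO (2.59% of all genes were higher). They were Atf4 (0.83 ± 0.16, adjusted p = 4.97e-04), Slc7a5 (1.22 ± 0.31), Asns (1.26 ± 0.36), Mthfd2 (0.82 ± 0.21) and the synthetases Aars (0.90 ± 0.25), Gars (0.81 ± 0.17), Iars (0.77 ± 0.24), Nars (0.66 ± 0.17) and Tars (0.60 ± 0.18). The estimate was positive for 36 of the 37, with a median of 0.62. For CM the same difference passed for 0 (11 at an unadjusted p under 0.05, 0 by DESeq2, 1.21% of all genes), with a median of 0.39 and an estimate for Atf4 of 0.48 (95% interval 0.15 to 0.80). Scaling by library totals in place of TMM factors gave 5 in place of 9 with PGE2, and leaving out the filter on low counts gave 4. For CM, 2 passed without replicate 1 of the stimulated DKO group with CM, and 4 with the replicate number as a block. By their genotypes WT and DKO differ in Ptger2 as well as in the floxed Ptger4 and the Gzmb-driven Cre. The difference between DKO and EP2KO, which by genotype is the Cre alone, was not tested.

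**Figure D2:**
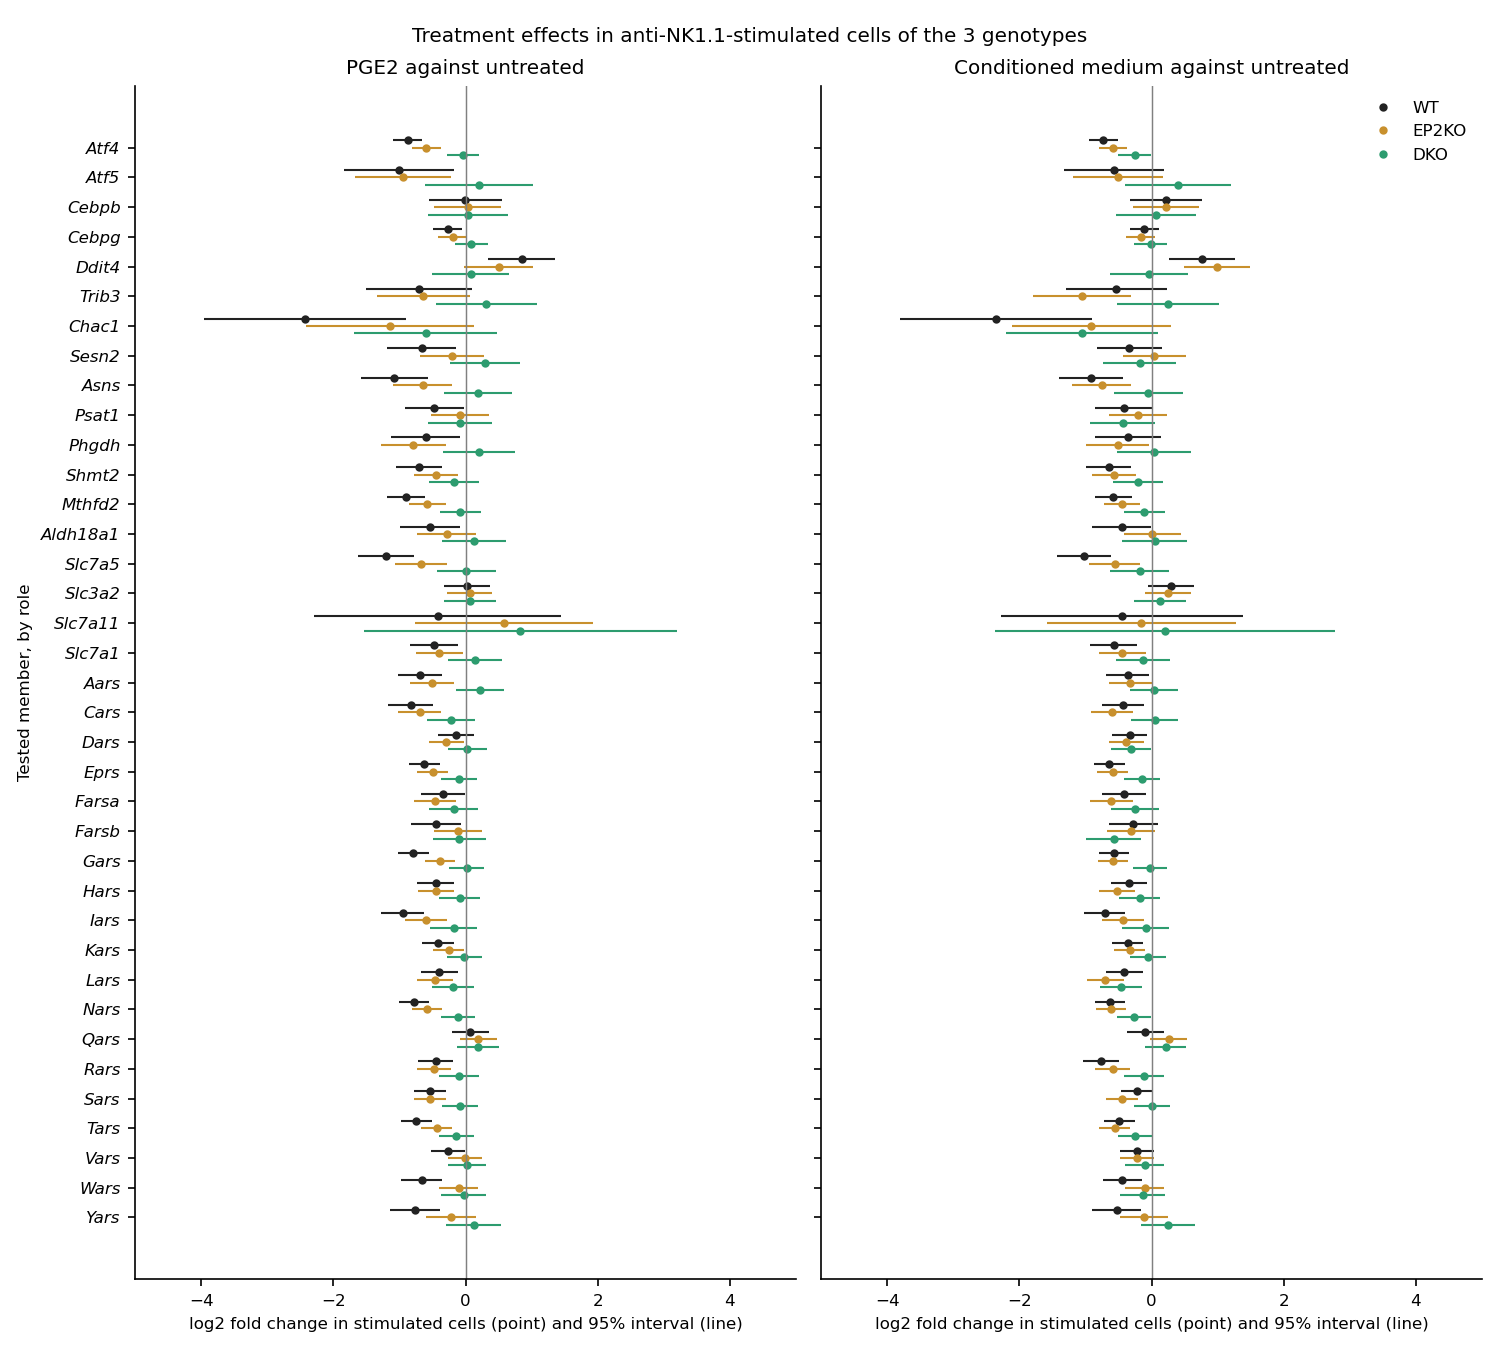
Log2 change (horizontal axis, points, with bars for the 95% interval) of the tested genes with PGE2 or CM in stimulated cells, by genotype. In WT and EP2KO most points lie left of 0, with Ddit4 to the right, and in DKO with PGE2 the points scatter about 0.

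Without stimulation, few genes of the set responded to treatment. PGE2 in WT lowered 3 and raised 0 (1.05% of all genes fell): Shmt2 (-0.88), Farsb (-1.05) and Vars (-1.10). Only 2 libraries stand behind the treated group, and without the first of them in the labels' numbering (replicate 2) 1 gene passed. CM in WT lowered Farsb (-0.85), Vars (-0.57) and Tars (-0.39) and raised Cebpb (0.95) and Slc3a2 (0.70), 3 down and 2 up (8.23% of all genes changed). That count was 2 without replicate 3 of the CM group. In every alternative fit 1 of the 3 calls with PGE2 held (not Farsb and Shmt2), and 2 of the 5 with CM (not Cebpb, Farsb and Tars). The mitochondrial share of counts, a sign of RNA quality, was 7.28 to 10.1% in resting untreated WT libraries, 10.4 to 11.1% with PGE2 and 9.34 to 12.3% with CM. In resting EP2KO it was 9.19 to 10.96%, 10.7 to 12.5% and 10.4 to 12.2% in the same order, and in stimulated WT 7.22 to 10.4%, 8.39 to 10.4% and 7.49 to 9.44%. Its part in these results was not tested.

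Slc3a2, which did not pass with either treatment in stimulated cells, passed in 3 of the 4 resting WT and EP2KO comparisons, each time upward. Its mean was 253 ± 19.5 CPM (SD, n = 4) in resting untreated WT and 412 ± 68.3 CPM (SD, n = 4) with CM. In EP2KO it went from 206 ± 23.9 CPM (SD, n = 4) to 381 ± 85.6 CPM (SD, n = 4) with PGE2 and 416 ± 28.7 CPM (SD, n = 4) with CM (0.89 ± 0.18 and 1.02 ± 0.18). With PGE2 in resting WT it stood at 0.62 and did not pass (adjusted p = 0.0969). The difference of its effect between stimulated and resting WT cells did not pass with PGE2 (-0.60 ± 0.27, adjusted p = 0.351) or CM (-0.41 ± 0.25, adjusted p = 0.401). Besides Slc3a2, resting EP2KO cells showed a fall of Shmt2 with PGE2 (-0.66), 1 up and 1 down (3.15% of all genes changed), and the count was 1 when any of 7 of the 8 libraries was left out. With CM they showed falls of Dars (-0.55) and Vars (-0.63), 1 up and 2 down (4.37%), and Dars did not hold in every alternative fit. In resting DKO cells 0 passed with PGE2 (0 at an unadjusted p under 0.05, 0 by DESeq2, 0% of all genes) and 0 with CM (3 at an unadjusted p under 0.05, 0 by DESeq2, 0%).

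Atf4 itself did not pass at rest: 122 and 121 CPM with PGE2 and 123, 122, 119 and 119.7 CPM with CM in WT, log2 changes of 0.19 ± 0.14 and 0.19 ± 0.12. Whether the treatment effect depended on stimulation was tested in WT. The PGE2 effect was lower in stimulated than in resting cells for Atf4 (-1.06 ± 0.18, adjusted p = 1.73e-04), Gars (-0.79 ± 0.19) and Nars (-0.77 ± 0.18), and higher for Vars (0.83 ± 0.21), 4 of 37 genes (1.31% of all genes). Without replicate 2 of the resting PGE2 group the count was 1, and without replicate 4 of that group it was 2. The CM effect was lower in stimulated cells for Atf4 (-0.92 ± 0.16, adjusted p = 2.65e-04), Gars (-0.73 ± 0.17) and Rars (-1.004 ± 0.20), 3 of 37 genes (1.35% of all genes were lower). At rest a difference from WT in the treatment effect passed for 0 genes with either treatment in EP2KO (2 with PGE2 and 0 with CM at an unadjusted p under 0.05, 0 by DESeq2, 0% and 0% of all genes) and in DKO (6 and 2, 0 by DESeq2, 0.485% and 0.280%).

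**Figure D3:**
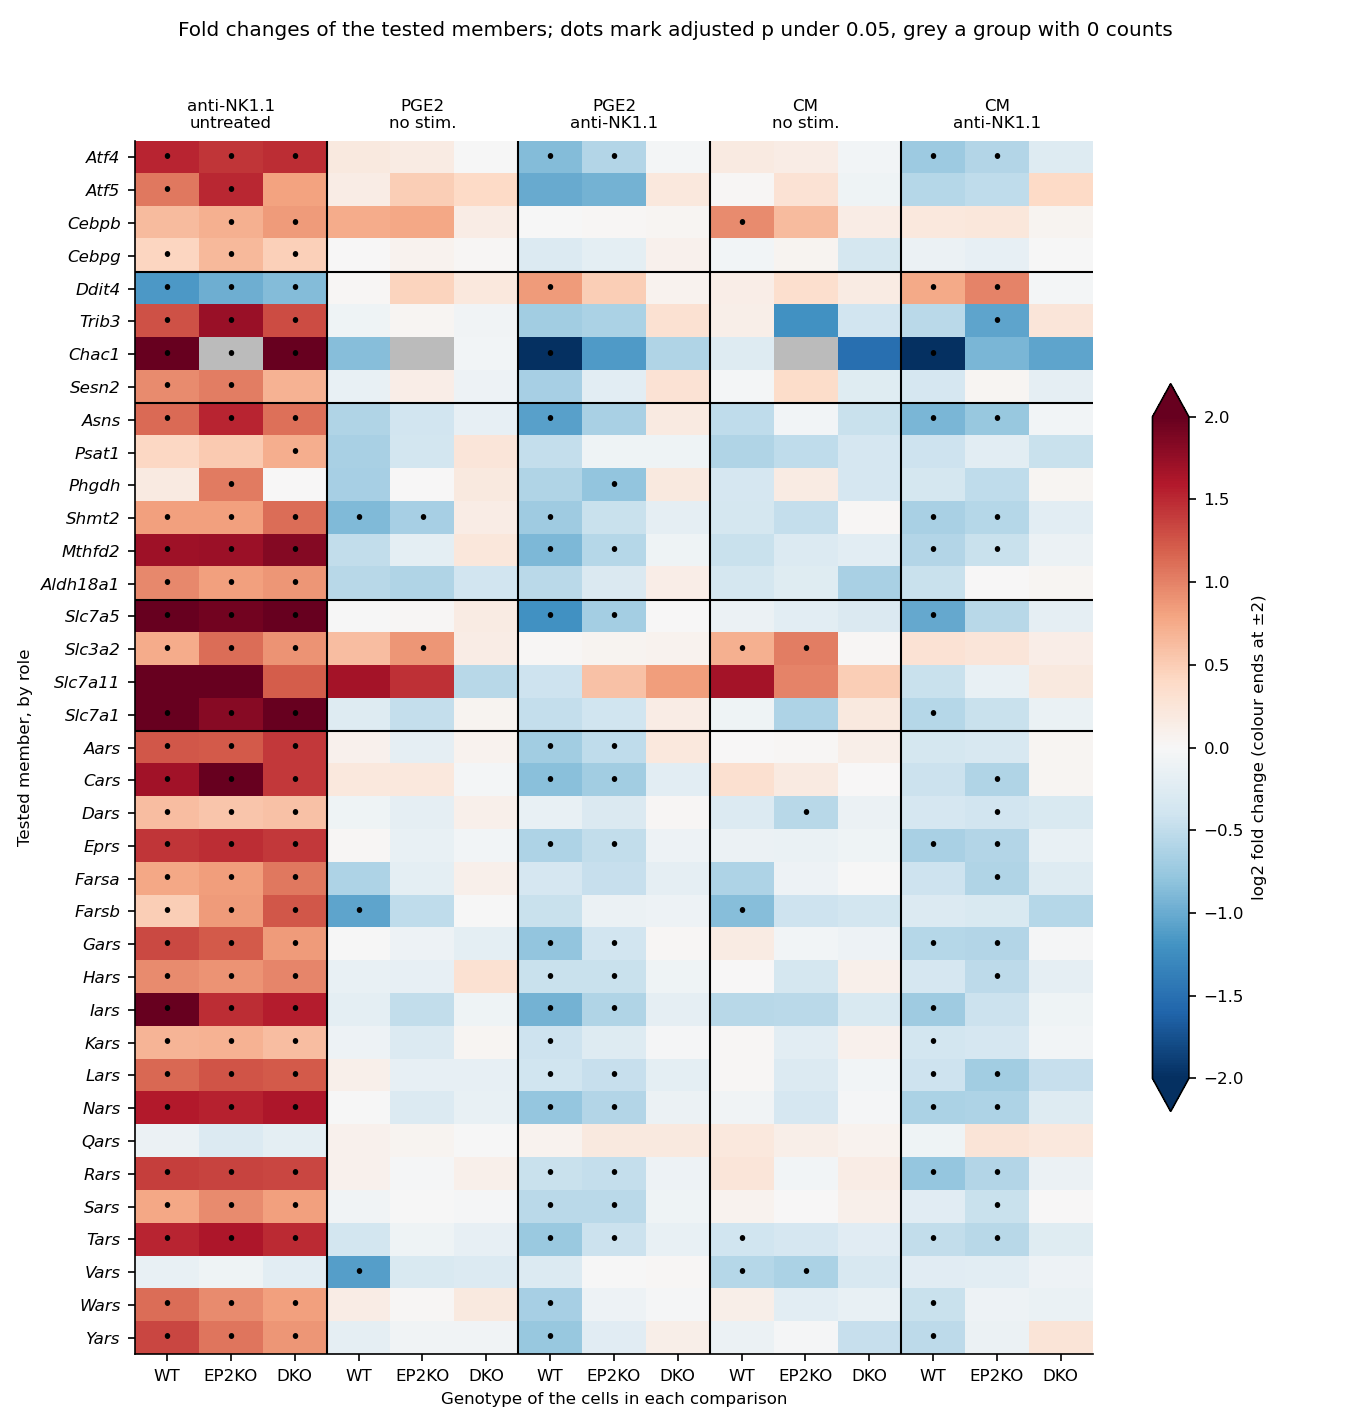
Log2 change of the 37 tested genes (rows, by role) in the 15 comparisons within a genotype (columns), with dots at an adjusted p under 0.05 and grey where a group had 0 counts. The columns for anti-NK1.1 are mostly positive, those for PGE2 and CM in stimulated WT and EP2KO cells mostly negative, and those for DKO and for resting cells hold few or no dots.

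**Figure D4:**
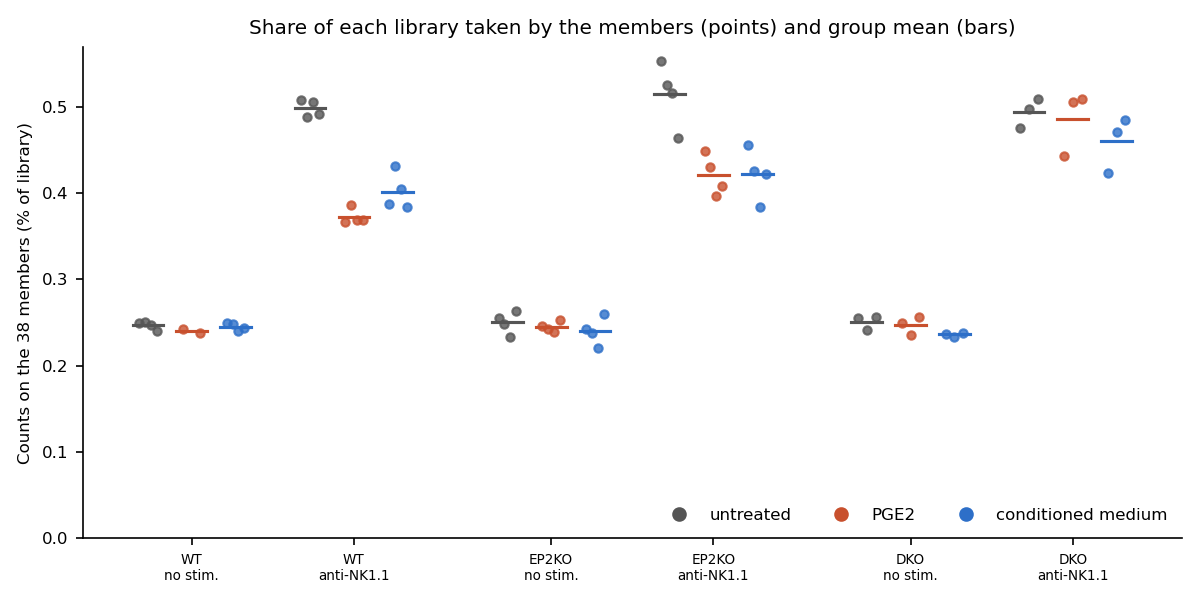
Share of all counts taken by the 38 genes found, in percent, for each library (points) by group. Stimulated untreated WT libraries lie between 0.488 and 0.508%, those with PGE2 between 0.366 and 0.387%, and those with CM between 0.384 and 0.431%.

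As a share of all counts, the 38 genes found took 0.250% ± 0.0131 (SD, n = 4) in resting and 0.514% ± 0.0373 (SD, n = 4) in stimulated untreated EP2KO cells, and 0.251% ± 0.00837 (SD, n = 3) and 0.494% ± 0.0170 (SD, n = 3) in DKO. With PGE2 and stimulation the share was 0.421% ± 0.0236 (SD, n = 4) in EP2KO and 0.486% ± 0.0374 (SD, n = 3) in DKO, and with CM 0.402% ± 0.0219 (SD, n = 4) in WT, 0.422% ± 0.0294 (SD, n = 4) in EP2KO and 0.460% ± 0.0326 (SD, n = 3) in DKO. Without treatment the test told no gene of the set apart by genotype: untreated EP2KO and DKO cells differed from WT in 0 of the 37 genes at rest (1 each at an unadjusted p under 0.05, 0 by DESeq2, 0.0653% and 0.112% of all genes) and in 0 when stimulated (2 and 0, 0 by DESeq2, 0.0746% and 0.131%). For Atf4 in stimulated cells the difference was -0.06 (95% interval -0.27 to 0.15) in EP2KO and -0.06 (-0.29 to 0.17) in DKO.

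The rest of the pathway was read from 4 further lists. Of 10 tested eIF2 kinases, phosphatases and regulators, 5 rose and 1 fell with anti-NK1.1 in WT, where 42.0% of all genes changed. Eif2s1, the phosphorylated eIF2 subunit (0.93), the GCN2 partner Gcn1 (1.27) and the eIF2 phosphatase subunits Ppp1r15b (0.81) and Ppp1r15a (1.01) rose, and Eif2ak3, the eIF2 kinase PERK, fell (-0.82). With PGE2 in stimulated WT, where 15.6% of all genes changed, 3 fell (Ppp1r15b -0.78, Eif2s1 -0.69 and Ppp1r15a -0.82) and Eif2ak3 rose (0.86). With CM the count was again 3 down and 1 up (15.4% of all genes). In EP2KO 0 passed with PGE2 (3.90% of all genes fell) and 1 fell with CM (10.4% of all genes changed).

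Of 12 tested genes otherwise linked to ATF4, 9 rose and 0 fell with anti-NK1.1 in WT (against 42.0% of all genes changed), led by the glutamine transporter Slc1a5 (1.53), Slc38a1 (1.28), the bZIP factor Atf3 (3.34) and Shmt1, the cytosolic serine hydroxymethyltransferase (1.72). With PGE2 in stimulated WT 5 fell and 0 rose (against 15.6% of all genes), among them Herpud1 (-1.10), Slc1a5 (-0.76), Atf3 (-1.24) and Shmt1 (-1.06), and with CM 5 fell (15.4%). In EP2KO 3 fell with each treatment, where 3.90% of all genes fell with PGE2 and 10.4% changed with CM. Of 5 tested cytosolic synthetase genes and scaffolds outside the set, Eef1e1 (1.75), a scaffold of the multisynthetase complex, and the methionine enzyme Mars1 (0.80) rose with anti-NK1.1 in WT and fell with PGE2 (-1.19 and -0.65). Over all tested genes 42.0% changed with anti-NK1.1 and 15.6% with PGE2 in these comparisons.

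Those mitochondrial synthetases that have a separate nuclear gene were counted beside the cytosolic ones, and the difference between the lists was not tested. Of 16 tested, 3 rose (Yars2 1.08, Nars2 0.96 and Tars2 0.64) and 2 fell (Fars2 -1.30 and Pars2 -1.59) with anti-NK1.1 in WT, where 42.0% of all genes changed. The median was 0.20, against 17 up and 0 down of 19 and a median of 1.14 for the cytosolic enzymes. In EP2KO and DKO only Yars2 rose among the 16 with anti-NK1.1, where 33.3% and 30.2% of all genes changed. With PGE2 in stimulated WT 0 of 16 passed (15.6% of all genes changed), with a median of -0.26, against -0.54 for the cytosolic 19. With CM 1 fell (Nars2, -1.25), where 15.4% of all genes changed. In DKO 0 genes of the 4 lists passed with either treatment in stimulated cells, where 0% of all genes changed with PGE2 and 0.0746% with CM.

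Read by promoter, 8 of the 9 tested genes with the TGATGNAA core rose with anti-NK1.1 in WT, 7 fell with PGE2 and 6 with CM in stimulated WT cells. Over all tested genes 42.0% changed with anti-NK1.1, 15.6% with PGE2 and 15.4% with CM. Of the 20 tested genes with a promoter entry and without the core, 15 rose and 1 fell with anti-NK1.1, 6 fell and 1 rose with PGE2, and 6 fell and 1 rose with CM. Of the 8 without an entry, among them Nars, Slc7a5 and Rars, 7 rose with anti-NK1.1, 7 fell with PGE2 and 5 with CM. These counts describe the set and were not tested.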

How the data were processed

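The authors deposited 1 table of raw counts per gene for 64 bulk 3′ mRNA-seq libraries, and all values were whole numbers. Reverse transcription added sample barcodes and molecular identifiers, per the labels' protocols. The sources used here do not say whether the counts are molecules or reads, nor the strand setting, and the aligner and counter are not given in the sources used. Overlapping or antisense genes may therefore share counts. GRCm38 (mm10) and DESeq2 are named in the submitters' processing notes. Gene positions are from GENCODE M21 for GRCm38 and promoters from RefSeq.

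A minimum count of 10 in edgeR's filterByExpr left 10723 genes with 99.21% of counts. All libraries were fitted together with edgeR 4.0.16 (limma 3.58.1, R 4.3.3): TMM factors, 1 mean per group, robust quasi-likelihood tests, 33 contrasts of group means. Benjamini-Hochberg adjustment of p-values ran over all tested genes, with calls at an adjusted p under 0.05. Standard errors and 95% intervals come from the fitted weights. Alternatives were RLE factors, library totals, no filter, DESeq2 1.42.0, the compared genotypes alone, a replicate block and leaving out each library.

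The genes and lists were chosen with earlier results of these data known. Per-library values are printed for the 12 genes called in most of the 15 comparisons within a genotype (ties by the smallest p in stimulated WT cells), plus Asns and Ddit4 where not among them, and other genes by fold change or count. Same-numbered libraries deviated together, with every correlation of deviations over 0.1, in 5 comparisons with 3 or more pairs: anti-NK1.1 in DKO, PGE2 in resting DKO, PGE2 in stimulated WT and DKO, and CM in stimulated DKO. Across all groups the median correlation of same-numbered libraries was 0.20, 0.24 and 0.25 in WT, EP2KO and DKO. For libraries of different numbers it was -0.07, -0.08 and -0.13. The main fit had no replicate block.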

Additional observations from a re-analysis of the deposited data

Results flagged for a closer look

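Of 154 groups of 4 libraries examined for the 14 genes with per-library values, 6 had 1 library set apart from the other 3 (a gap beyond Dixon's 95% critical value), where chance sets apart about 1 in 20 groups. Asns was involved in 3 of them: 26.9 CPM in replicate 1 of resting untreated WT (highest), 8.33 CPM in replicate 3 of resting EP2KO with CM (lowest) and 39.9 CPM in replicate 1 of stimulated EP2KO with CM (highest). The others were Gars at 72.6 CPM in replicate 4 of resting EP2KO with PGE2 (lowest), Lars at 88.6 CPM in replicate 3 of resting untreated WT (highest) and Iars at 52.1 CPM in replicate 3 of resting untreated EP2KO (highest).

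A further 16 results were differences between groups in the effect of a treatment. The PGE2 effect in WT was lower in stimulated than in resting cells by a log2 difference of -1.06 for Atf4, -0.79 for Gars and -0.77 for Nars, and higher by 0.83 for Vars. The CM effect in WT differed in the same sense by -0.92 for Atf4, -0.73 for Gars and -1.004 for Rars. The PGE2 effect in stimulated cells was higher in DKO than in WT by 0.83 for Atf4, 1.26 for Asns, 0.82 for Mthfd2, 1.22 for Slc7a5, 0.90 for Aars, 0.81 for Gars, 0.77 for Iars, 0.66 for Nars and 0.60 for Tars.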

How the results depend on the processing

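Of 179 calls within a genotype, 0 changed direction under the alternatives run. Of these, 176 held with RLE factors and with DESeq2, 149 with library totals, 148 without the filter on low counts, which tests more genes, 167 with the compared genotypes alone and 179 with the replicate block. Leaving out 1 library kept 1201 of 1364. With library totals the median log2 change of all genes moved by over 0.1: for anti-NK1.1 it was -0.12, -0.14 and -0.16 in WT, EP2KO and DKO against 0.01 in each with TMM, for PGE2 and CM in stimulated WT 0.07 and 0.08 against -0.05 and -0.04, for CM in stimulated EP2KO 0.08 against -0.03, for PGE2 and CM by stimulation 0.11 and 0.13 against -0.04 and -0.02, and for PGE2 in stimulated DKO minus WT -0.05 against 0.06.

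With library totals the counts of genes called went from 15 to 5 (PGE2, stimulated EP2KO), 4 to 2 (PGE2 by stimulation, WT) and 9 to 5 (PGE2, stimulated DKO minus WT). Without the filter they were 9, 1 and 4, and 10 in place of 17 for CM in stimulated EP2KO. With the compared genotypes alone the PGE2 by stimulation count was 1. The cause was not tested.

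The replicate block gained 32 of 376 uncalled results and lost 0. It moved the counts from 5 to 8 (CM, resting WT), 3 to 5 (CM, resting EP2KO; CM by stimulation, WT), 0 to 1 (PGE2 and CM, resting DKO minus WT) and 0 to 4 (CM, stimulated DKO minus WT), and no other count by over 1.5 times. Block values were not computed for untreated genotypes, whose replicates are nested in genotype.

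Leaving out each library in turn gave 1 to 3 (PGE2, resting WT), 1 to 2 (PGE2, resting EP2KO), 7 to 15 and 10 to 20 (PGE2 and CM, stimulated EP2KO), 2 to 5 (CM, resting WT), 1 to 5 (PGE2 by stimulation, WT), 0 to 1 and 0 to 2 (PGE2 resting and CM stimulated, DKO minus WT). CM in resting WT gave 3 without WT CM replicates 1 or 4 or untreated replicate 4, PGE2 in stimulated EP2KO 9 without untreated replicate 1, and PGE2 in resting DKO minus WT 1 without DKO PGE2 replicate 2. With 1 library left in the resting WT group with PGE2, that library was assumed to vary like the other groups. PGE2 in stimulated WT ranged from 19 to 22, and anti-NK1.1 from 28 to 31, 32 to 34 and 28 to 30 in WT, EP2KO and DKO.

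Genes of a few counts in a library (Slc7a11, Atf5, Trib3, Chac1, Pycr1) were too shallow for small changes to be detectable.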
